A study of Mus musculus with 8 samples.

Results

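The 9 genes described here encode the AP-1 transcription factors of the Fos family (Fos, Fosb, Fosl1 and Fosl2) and the Jun family (Jun, Junb and Jund), together with Atf3 and Maff, which belong to related families of the same protein class. They were taken by name from the 21887 protein-coding genes of the RefSeq table, and all 9 were found. Acetylation of histone H3 at lysine 27 (H3K27ac) was profiled by ChIPmentation, in which antibody-bound chromatin is cut and tagged by a transposase, in muscle stem cells (satellite cells) of C57BL/6 mouse skeletal muscle. FISC are freshly isolated satellite cells of untreated muscle, and ASC are satellite cells isolated 2.5 days after injury with BaCl2. Each condition has 2 H3K27ac libraries and 2 inputs, and the inputs entered no test. The labels give neither sex nor age, nor whether the replicates came from separate animals, so the p-values measure only the spread between these libraries, which may be technical.

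The deposited files are lists of peaks. They hold no read totals, so the depth behind a peak is unknown here. What was compared is breadth, the kb of DNA lying under peaks, in 3 places for each gene: within 2 kb of either gene end, across the gene body, and in the flanks from 2 to 50 kb outside the gene (96 kb in all). The body overlaps the end windows, while the flanks overlap neither. The ASC lists hold 50154 and 54700 peaks covering 49.2 and 57.7 Mb, against 45014 and 43092 peaks covering 34.4 and 33.7 Mb in FISC. Every list starts at a −log10 q between 1.33 and 1.37. Because the ASC lists cover more of the genome, the counts of members called are given beside the share of all tested genes with the same call, and again after dividing by each library's covered length.

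AP-1 is a dimer of basic leucine zipper (bZIP) proteins, usually a Fos with a Jun protein or a pair of Jun proteins, that binds short palindromic DNA sites. Fos, Fosb, Jun, Junb, Atf3 and Maff are immediate early genes, transcribed within minutes of growth factor, stress or injury signals that reach them through MAP kinases and serum response factor. They are known to be induced while satellite cells are dissociated from muscle as well as by injury. H3K27ac marks active promoters and enhancers, and broad or repeated peaks around a gene are commonly read as an active regulatory neighbourhood.

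The 250 bases before the annotated start site of 5 members are shown because these genes carry the main differences below. They are taken from RefSeq on GRCm38.p6, the assembly of mm10, and are written 5′ to 3′ in the direction of transcription, with matches to TGACNTCA in capitals.
Jun (chr4:95052223-95052472, minus strand): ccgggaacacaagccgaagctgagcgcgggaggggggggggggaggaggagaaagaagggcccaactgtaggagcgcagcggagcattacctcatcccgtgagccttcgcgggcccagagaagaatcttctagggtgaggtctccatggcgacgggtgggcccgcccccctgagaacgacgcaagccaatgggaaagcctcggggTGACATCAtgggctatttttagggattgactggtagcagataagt
Maff, the second of its listed start sites (chr15:79347270-79347519, plus strand): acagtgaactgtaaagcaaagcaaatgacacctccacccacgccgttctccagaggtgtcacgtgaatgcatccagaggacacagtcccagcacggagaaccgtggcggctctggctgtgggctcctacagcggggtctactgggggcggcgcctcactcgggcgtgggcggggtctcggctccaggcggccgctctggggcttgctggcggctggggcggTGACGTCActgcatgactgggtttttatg
Fos (chr12:85473640-85473889, plus strand): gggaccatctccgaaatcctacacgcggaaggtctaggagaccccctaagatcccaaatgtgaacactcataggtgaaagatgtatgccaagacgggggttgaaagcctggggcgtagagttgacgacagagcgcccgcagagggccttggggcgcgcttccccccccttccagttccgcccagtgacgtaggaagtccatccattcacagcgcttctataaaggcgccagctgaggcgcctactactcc
Junb (chr8:84978749-84978998, minus strand): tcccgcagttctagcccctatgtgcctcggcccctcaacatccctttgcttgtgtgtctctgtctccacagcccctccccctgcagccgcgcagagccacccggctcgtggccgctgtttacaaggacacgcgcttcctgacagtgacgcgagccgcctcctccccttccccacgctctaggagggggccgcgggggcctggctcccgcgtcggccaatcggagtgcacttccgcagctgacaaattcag
Atf3 (chr1:191183334-191183583, minus strand): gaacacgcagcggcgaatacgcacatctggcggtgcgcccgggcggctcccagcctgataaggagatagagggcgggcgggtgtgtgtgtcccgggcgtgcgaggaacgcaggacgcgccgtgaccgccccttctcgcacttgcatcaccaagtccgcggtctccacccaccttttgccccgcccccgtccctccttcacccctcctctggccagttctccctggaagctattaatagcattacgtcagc
The Jun match begins 45 bases before the start site, and the Maff match, which is the palindrome TGACGTCA, begins 29 bases before the second start site listed for Maff. The search covered windows of 300 bases, 250 before and 50 after each start, on both strands. TGACNTCA, which includes TGACGTCA and was added to the search after these sequences had been seen, occurs in 8.75% of 21263 such windows of protein-coding genes, and TGACGTCA in 2.23%. The third start site of Maff also holds TGACNTCA, again 45 bases upstream. TGANTCA, which allows any middle base and was used here for the AP-1 site, occurs in 6.99% of windows. The CArG box bound by serum response factor occurs in 1.52%. Neither matched in the 10 windows of the 8 members with a promoter entry, which are all but Fosl1. Bases more than 250 upstream of a start were not searched, so sites there would be missed.

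The windows of Fos, Fosb and Fosl2 lay wholly under peaks in all 4 libraries. The Junb window was covered over 100% of its length in both ASC libraries and over 31.3 and 57% in FISC. The Atf3 window was covered over 100 and 73.7% in ASC and over 30.3 and 25% in FISC. At Junb and Atf3 peaks covered more of the window in ASC, and in both FISC libraries no peak lay over the start site itself: the FISC peaks stood to either side of it. The covered share of the Jun window did not split by condition, with 49.3 and 100% in ASC and 100 and 23.3% in FISC. Neither did that of the Jund window, with 18.7 and 100% in ASC and 39.7 and 27.7% in FISC. At Jund too, however, no FISC peak lay over the start site itself, while a peak in each ASC library did.

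At the gene ends, peaks at Fosl1 and Jun were broader in ASC and no member was called narrower, although after division by covered length Jun turned negative and 5 other members were called lower. The counts are 2 higher and 0 lower of 9 by limma at an adjusted p below 0.05, where 26.5% of 12924 tested genes were higher and 3.61% lower, so the share of members called is near that of all genes. At an unadjusted p below 0.05 limma gave 3 higher and 0 lower. ASC lay above FISC without overlap in 5 of 9 members, against 62.1% of genes. The median difference was 0.366 kb over the members and 0.304 kb over all genes. After that division 0 members were higher and 5 lower (Fos, Fosb, Fosl2, Junb and Jund), with 0 and 6 at an unadjusted p below 0.05, beside 9.19% of all genes higher and 36.6% lower, and the median over all genes was −0.345 kb. Where peaks fill a window in every library, the division must give a lower value in ASC, whose lists cover more of the genome. Fosl2, with 4.0 kb in each library, was turned to −1.84 kb in this way, so its call shows no narrowing of peaks.

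Fosl1 encodes Fra-1, a Fos protein without the strong activation domain of Fos, and it is usually induced later than Fos. Its end windows held 5.64 and 5.73 kb under peaks in ASC and 3.44 and 3.61 kb in FISC. The ASC values exceeded both FISC values, by 2.16 kb on average (SE 0.194, 95% interval 1.65 to 2.66, adjusted p 0.00397), a difference larger than that of 98% of tested genes. Among the alternatives that could be run for Fosl1, which exclude the start site alone, only division by covered length ended the call, leaving 0.147 kb (adjusted p 0.736).

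Jun encodes c-Jun, the partner of Fos and target of the JNK kinases. Its end windows held 5.61 and 5.86 kb in ASC and 4.08 and 4.14 kb in FISC, a gain of 1.63 kb (SE 0.211, adjusted p 0.00823). The groups did not overlap, but the call was lost at annotated start sites alone and without the filter on low values, with lists cut to equal covered length (adjusted p 0.118), with a fold enrichment of at least 5 (0.108), and without FISC replicate 1 or 2 (0.0565 and 0.0571). The cut to equal covered length kept 18090 and 14488 peaks in ASC and 42792 and 43092 in FISC, so it was far stricter in ASC. Divided by covered length the Jun difference was −0.561 kb.

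The remaining members were not called at their ends. Junb, a Jun protein that activates transcription more weakly than c-Jun, had 5.84 and 5.65 kb in ASC and 5.02 and 5.11 kb in FISC (adjusted p 0.0752), with no overlap. The merged end windows of Junb are 5.84 kb long, so ASC replicate 1 filled them and no larger value could be measured. Junb was called higher with a −log10 q of at least 5 (0.906 kb, adjusted p 0.0424) and with windows of 5 kb (2.64 kb, 0.0132), and lower after division by covered length (−1.77 kb, 0.0187). With peaks within 500 bases joined, its difference fell from 0.68 to 0.2515 kb (adjusted p 0.419). Fos, the founding member, had 3.30 and 3.31 kb in ASC and 3.26 and 3.10 kb in FISC (adjusted p 0.56). At Fos the difference was 0.126 kb, with a 95% interval from −0.278 to 0.53 kb.

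Fosl2, which encodes Fra-2, had 4.0 kb in each of the 4 libraries, because peaks filled the whole window at its start and left the other end bare. Fosb, which encodes the Fos protein FosB, had 3.24 and 3.45 kb in ASC and 3.58 and 3.33 kb in FISC. Jund, the Jun protein present in most resting cells, had 4.34 and 5.42 kb in ASC and 5.40 and 5.33 kb in FISC. In Fosb and Jund the conditions overlapped.

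Atf3, a stress-induced repressor of the ATF family, had 2.51 and 3.15 kb in ASC and 2.13 and 2.79 kb in FISC. Maff, a small Maf protein that lacks an activation domain, had 2.97 and 3.61 kb in ASC and 2.86 and 2.17 kb in FISC. Atf3 overlapped between conditions, Maff did not, and neither was called (adjusted p 0.413 and 0.131). With peaks within 500 bases joined, the difference went from 0.366 to 0.0685 kb at Atf3 and from 0.7795 to 0.792 kb at Maff. The plot of breadth by library shows the near-equal ends of most members beside the wider spread of their flanks.

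**Figure D1:**
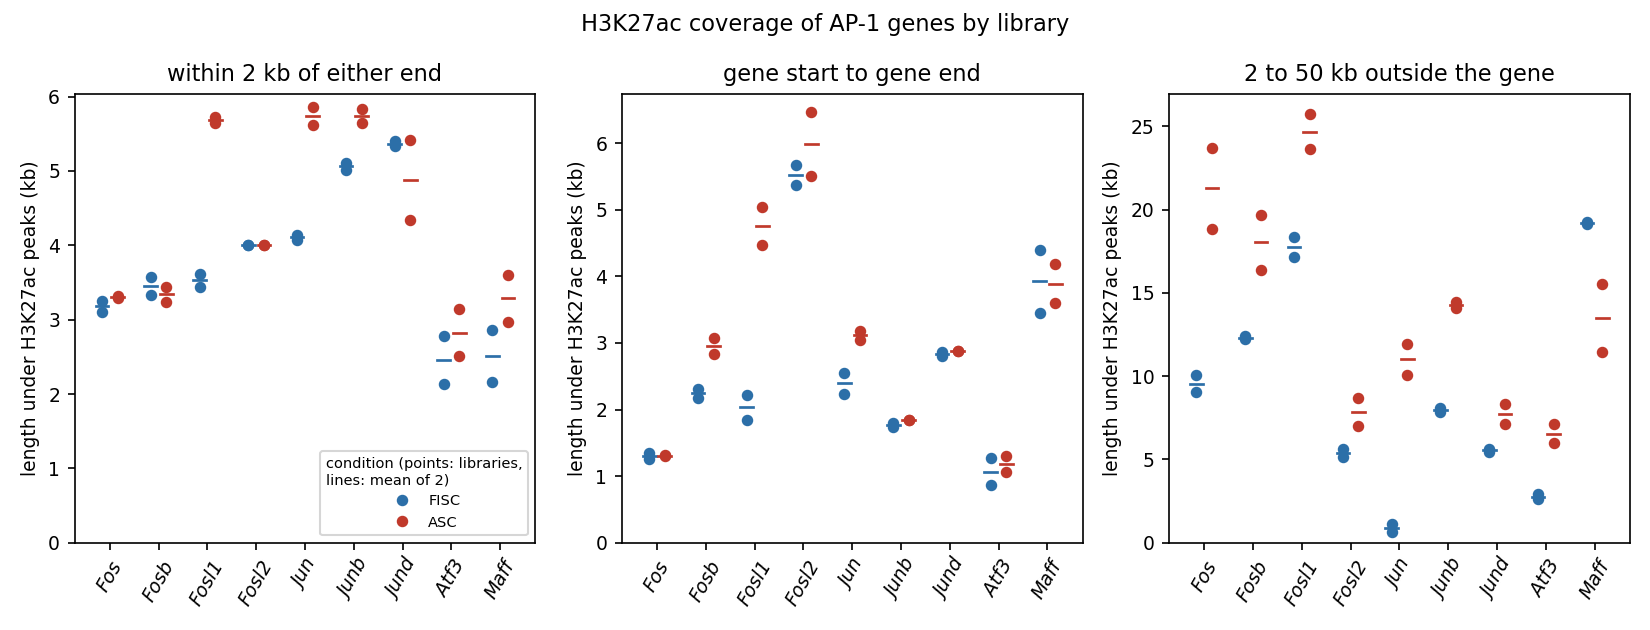
Breadth of H3K27ac peaks (kb) at the gene ends, in the body and in the flanks of the 9 members, with 1 point for each of the 2 ASC and 2 FISC libraries. At the ends the conditions lie close together in most members, while in the flanks, before any scaling, all 9 members separate, 8 with ASC above (4 of them turn negative after division by covered length) and Maff with FISC above.

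In the gene bodies Fosl1 and Fosb were broader in ASC, although Fosb turned negative after division by covered length (−0.454 kb). Of the 9 members 2 were called higher and 0 lower by limma, beside 27.3% higher and 4.95% lower of 13726 genes, and at an unadjusted p below 0.05 the counts were 3 and 0. ASC lay above FISC without overlap in 5 members, against 61.4% of genes. The Fosl1 body held 4.47 and 5.05 kb in ASC and 1.85 and 2.22 kb in FISC, a ratio of 2.34 between the means (adjusted p 0.00802). In both ASC libraries over 4 kb of the 8.24 kb gene lay under peaks. The region responsible, chr19:5444195-5452744, held 7.63 and 8.55 kb of peaks in ASC and 2.17 and 2.46 kb in FISC, and it also reaches an end of the neighbouring gene Ccdc85b.

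The Fosb body held 2.83 and 3.08 kb in ASC and 2.17 and 2.31 kb in FISC (difference 0.714 kb, SE 0.177, adjusted p 0.0479). Its groups did not overlap, though the call sits near the threshold and was lost under 9 alternatives and turned under 1. Jun had 3.04 and 3.19 kb in ASC and 2.24 and 2.56 kb in FISC (adjusted p 0.0603), also without overlap. In ASC replicate 2 the peaks covered the whole Jun gene. Leaving out FISC replicate 1 or 2 left 0 body calls by limma among the members and among all genes (Fosl1 adjusted p 0.0896 and 0.0842), with 1 and 2 members higher at an unadjusted p below 0.05. Divided by covered length, body breadth called 1 member higher (Fosl1, 1.29 kb, adjusted p 0.0178) and 5 lower (Fos, Fosl2, Junb, Jund and Maff), beside 16.8% of all genes higher and 22.5% lower. Peaks covered the whole of Junb and Jund in both ASC libraries, so no larger value could be measured there, and their lower calls show no loss of peaks.

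In the flanks 8 members were broader in ASC and Maff was broader in FISC, although Fosb, Fosl1, Fosl2 and Jund turned negative, without a call, after division by covered length. All 9 were called by limma, and in none did the conditions overlap. Of 15985 tested genes 46.0% were called higher and 5.71% lower, and 68.7% had ASC above FISC without overlap. Before any scaling the median difference was 5.74 kb over the members and 0.963 kb over all genes. Divided by covered length, 3 members were higher (Fos, Jun and Atf3) and 1 lower (Maff), beside 24.5% and 31.1% of all genes, and the median over all genes was −0.259 kb. With Fosb, Fosl1, Fosl2, Jund and Maff negative, the median over the members was then negative too, and no longer above that of all genes. Without FISC replicate 1, or without FISC replicate 2, the members called higher were Fos, Jun and Atf3 and 0 were lower by limma (4 higher and 0 lower at an unadjusted p below 0.05), beside 31.7 and 30.0% of all genes higher. In bulk cells a larger share of cells carrying the mark and more of it per cell cannot be told apart.

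Jun changed most in proportion. Its flanks held 10.1 and 11.9 kb under peaks in ASC and 1.14 and 0.669 kb in FISC. Both FISC libraries were nearly bare, and the ASC mean was 12.2 times the FISC mean. The difference was 10.1 kb (SE 0.75, 95% interval 8.28 to 11.9, adjusted p 0.000456). Jun stayed called higher under all 17 alternatives, including division by covered length (7.85 kb) and lists cut to equal covered length (9.18 kb).

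Most of this breadth came from 3 distal regions. At chr4:95097666-95102979, 48.1 kb upstream of the start site, the peaks covered 4.94 and 5.31 kb in ASC and 0.486 and 0.357 kb in FISC. At chr4:95082208-95085118, 31.4 kb upstream, they covered 2.55 and 2.54 kb in ASC and 0.656 and 0.312 kb in FISC. Both regions had peaks in every library that were several times wider in ASC. The third, chr4:94999864-95002828, lies 50.9 kb downstream of the start and had peaks only in the ASC libraries (2.36 and 2.97 kb). No end of another protein-coding gene falls within 50 kb of Jun, and with a flank limit of 20 kb the Jun difference was 0.58 kb (adjusted p 0.0211).

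Fos gained the most in kb. Its flanks held 18.9 and 23.7 kb in ASC and 10.05 and 9.06 kb in FISC. The ASC libraries differed from each other, yet both lay far above FISC. The difference was 11.7 kb (SE 1.96, 95% interval 6.94 to 16.5, adjusted p 0.00432), larger than that of 99% of tested genes. After division by covered length it was 5.11 kb (adjusted p 0.00322). Without the filter on low values the adjusted p was 0.0505. Fos also has no other gene end within 50 kb.

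The Fos start region itself, chr12:85471524-85475235, hardly moved, with 3.57 and 3.68 kb in ASC and 3.54 and 3.38 kb in FISC. Downstream of the gene, chr12:85511588-85515410, 39.6 kb from the start site, had peaks of 2.77 and 3.73 kb in ASC and none in FISC. At chr12:85522415-85525688, 50.2 kb downstream, peaks covered 2.85 and 3.10 kb in ASC and 0.878 and 0.482 kb in FISC. The gain thus lay beyond the nearest 20 kb: with a flank limit of 20 kb the Fos difference was 0.336 kb (adjusted p 0.74). Upstream, chr12:85454300-85456660, 18.4 kb from the start, was nearly equal, with 2.07 and 2.01 kb in ASC and 1.81 and 1.96 kb in FISC.

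Junb gained close to the gene. Its flanks held 14.1 and 14.5 kb in ASC and 7.88 and 8.10 kb in FISC (difference 6.28 kb, SE 0.979, adjusted p 0.00334). With a flank limit of 20 kb the difference was still 5.20 kb (adjusted p 0.00297). None of its flank regions had peaks in both ASC libraries alone, though 2 had a peak in 1 ASC library alone (0.289 and 0.456 kb). All 5 flank regions shared by the 4 libraries were wider in both ASC libraries. How often shared regions elsewhere were wider in ASC was not computed. The region over the gene, chr8:84974647-84983016, covered 8.37 and 8.01 kb in ASC and 5.21 and 5.89 kb in FISC, and reaches an end of Prdx2. Junb has 8 other protein-coding genes within 50 kb, and without the bases near their ends the difference was 3.59 kb (adjusted p 0.00551). With scaling by covered length it was 1.48 kb and no longer called (adjusted p 0.117).

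Atf3 started from a low level. Its flanks held 5.99 and 7.11 kb in ASC and 2.93 and 2.60 kb in FISC, a ratio of 2.37 (difference 3.79 kb, SE 0.545, adjusted p 0.00248). One strong region, 41.5 kb upstream at chr1:191223498-191226148, was the same width in all libraries, at 2.62 and 2.42 kb in ASC and 2.39 and 2.42 kb in FISC. The gain was around it. At chr1:191215882-191217990, 33.6 kb upstream, peaks covered 1.93 and 1.98 kb in ASC and 0.259 kb in FISC replicate 1, with no peak in FISC replicate 2, and 3 small regions 39.1 to 47.9 kb upstream had peaks in both ASC libraries alone. With a flank limit of 20 kb the Atf3 difference was 0.153 kb (adjusted p 0.663), and divided by covered length the 50 kb value was 1.81 kb (adjusted p 0.00622).

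The map of peaks around these genes shows the same layout library by library.

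**Figure D2:**
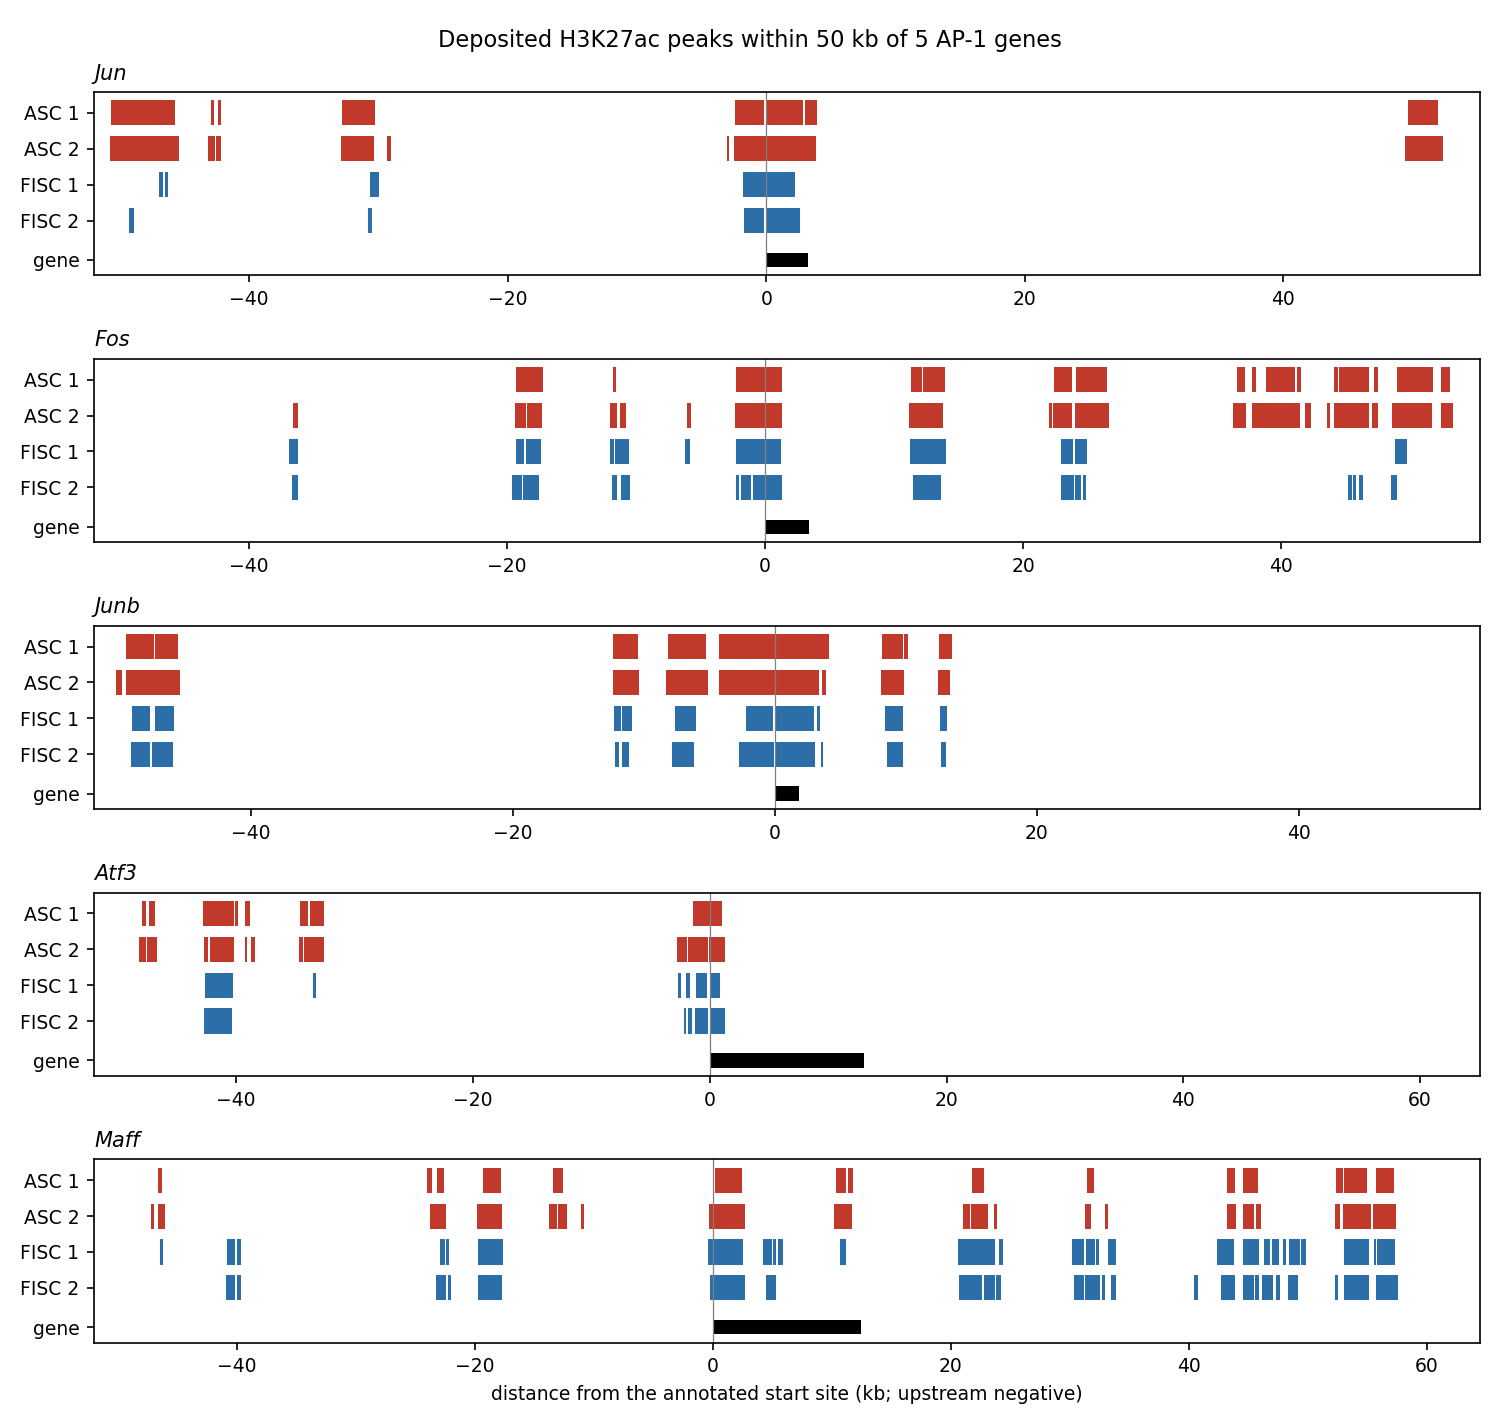
H3K27ac peaks around Jun, Fos, Junb, Atf3 and Maff in the 2 ASC and 2 FISC libraries, by distance from the start site (kb), with each bar 1 peak drawn to its width. Many distal bars of Jun, Fos and Atf3 are wider in the ASC rows or present only there. Others at Fos and Atf3 are of like width in both conditions, and some at Fos are wider in FISC. In the ASC rows the bars of Junb are wider near the gene, and Maff has bars present only in the FISC rows.

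The other 4 members gained less in proportion. Fosl1 flanks held 23.6 and 25.7 kb in ASC and 18.4 and 17.2 kb in FISC (ratio 1.39, adjusted p 0.0232). Fosb flanks held 16.4 and 19.7 kb in ASC and 12.4 and 12.2 kb in FISC (ratio 1.47, adjusted p 0.0287). Both lie in gene-dense stretches, with 11 and 7 other protein-coding genes within 50 kb. Without the bases near other gene ends both calls were lost, at 1.82 kb for Fosl1 (adjusted p 0.156) and 3.74 kb for Fosb (0.0615).

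Fosl2 flanks held 6.98 and 8.69 kb in ASC and 5.61 and 5.18 kb in FISC (ratio 1.45, adjusted p 0.0384). Jund flanks held 7.15 and 8.32 kb in ASC and 5.65 and 5.45 kb in FISC (ratio 1.39, adjusted p 0.0359). The separations were narrow and did not persist when the lists were cut to equal covered length, where Fosl2 gave 0.725 kb (adjusted p 0.225) and Jund 0.0115 kb (0.988). That cut removed far more peaks from the ASC lists than from the FISC lists. At Fosl2 a region 58.8 kb downstream of the start, chr5:32193934-32196593, had peaks in ASC alone (2.44 and 2.30 kb).

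Maff went the other way. Its flanks held 11.4 and 15.5 kb in ASC and 19.3 and 19.1 kb in FISC, and 0.494% of tested genes had a more negative difference. Each ASC value lay below each FISC value (difference −5.71 kb, SE 1.86, 95% interval from −10.2 to −1.18, adjusted p 0.0433). The direction was negative under all 17 alternatives and grew to −13.7 kb after division by covered length (adjusted p 0.000276). The call was lost under 8 of the 17, among them without FISC replicate 1 or 2 (adjusted p 0.284 and 0.283), and without ASC replicate 1 the difference was −3.66 kb (adjusted p 0.0136), over 1.5 times smaller.

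Of the 29 regions around Maff 8 had peaks in both FISC libraries and in neither ASC library. They run from 40.5 kb upstream to 48.9 kb downstream of the start. One, chr15:79350881-79351969, lies inside the gene, 4.80 kb from the start (0.997 and 0.88 kb in FISC). At chr15:79392744-79394265, 46.9 kb downstream, peaks covered 1.12 and 1.27 kb in FISC. The FISC-only regions are narrow, each under 2 kb. At a shared region, chr15:79367257-79370979, 22.5 kb downstream, peaks covered 1.04 and 2.21 kb in ASC and 3.36 and 3.28 kb in FISC, while upstream at 13.0 kb a region had peaks in ASC alone (0.905 and 1.42 kb).

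The flanks span the same 96 kb at every gene, so their levels can be ordered. Peaks at other genes count in them, with 11 other protein-coding genes within 50 kb of Fosl1 and 0 at Fos, Jun and Fosl2. The order is therefore not one of peaks that belong to the members alone. In FISC the order from the broadest was Maff, Fosl1, Fosb, Fos, Junb, Jund, Fosl2, Atf3 and Jun, with means of 19.2, 17.8, 12.3, 9.55, 7.99, 5.55, 5.39, 2.76 and 0.906 kb. Only Jund and Fosl2 overlapped among neighbours in that order. In ASC the order was Fosl1, Fos, Fosb, Junb, Maff, Jun, Fosl2, Jund and Atf3, with means of 24.7, 21.3, 18.1, 14.3, 13.5, 11.01, 7.84, 7.73 and 6.55 kb. There the 2 libraries of Fosl1 overlapped those of Fos, Fos overlapped Fosb, Junb overlapped Maff, Maff overlapped Jun and Fosl2 overlapped Jund. Jun moved from the last place to the sixth, and Maff from the first to the fifth.

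**Figure D3:**
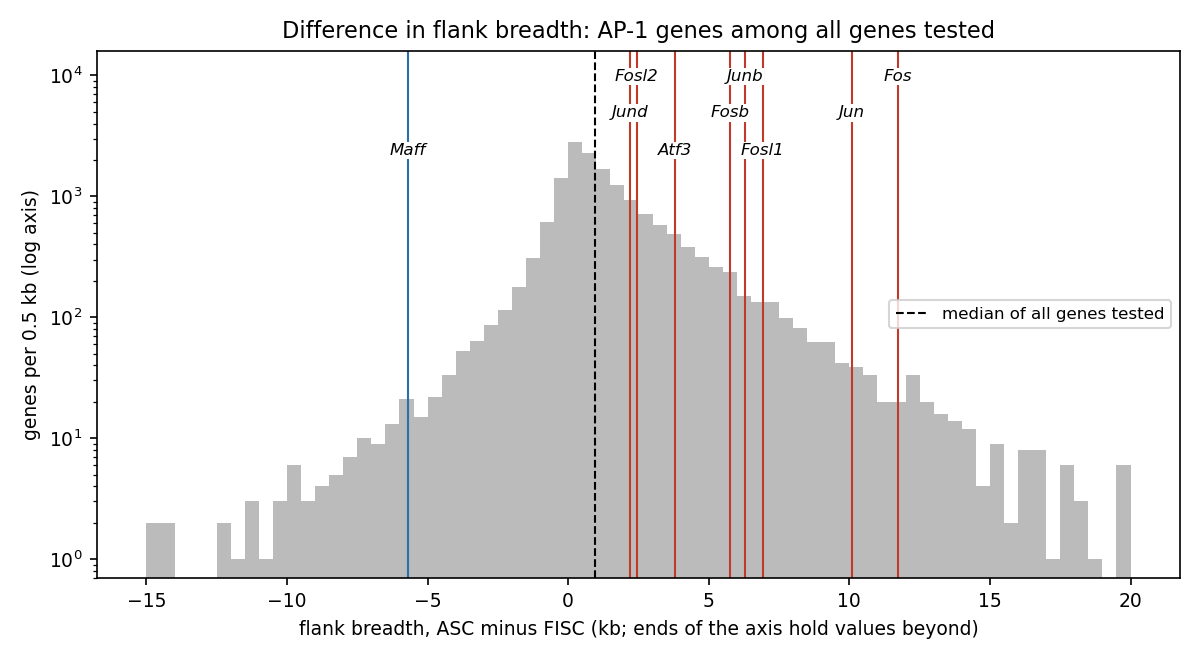
Distribution over all tested genes of the difference in flank breadth (ASC minus FISC, kb), with the 9 members marked. Fos and Jun lie above 99% and 98.5% of the 15985 genes, Maff lies near the lower end, and the other members lie between.

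The 127 regions within 50 kb of the members separate width from presence. A region is a stretch covered by overlapping peaks of the 4 libraries. Of these, 54 (42.5%) had peaks in all 4 libraries, beside 26.9% of all 72585 regions. The latter are regions of the whole genome, and the share within 50 kb of other genes was not computed. The larger share is thus not shown to be particular to the members. Another 20 (15.7%, beside 19.9%) had peaks in both ASC libraries alone, and 9 (7.09%, beside 7.3%) in both FISC libraries alone, 8 of them at Maff and 1 at Fosl2. A further 33 (26.0%, beside 37.1%) had a peak in 1 library. ASC-only regions numbered 5 at Fosb, 4 at Fos, 3 at Jun, 3 at Atf3, 2 at Fosl1, 1 each at Fosl2, Jund and Maff, and 0 at Junb. All 20 lay in the flanks, and 18 of them hold no end of another protein-coding gene.

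Without Maff, the flanks of the other 8 members had 33 regions shared by all 4 libraries and 19 regions found in ASC alone. The shared regions held a mean of 78.7 kb of peaks in ASC and 56.1 kb in FISC, and 23 of the 33 were wider in both ASC libraries, while 2 were narrower. The same shares over all shared regions were not computed. As the ASC lists cover more of the genome, these counts cannot be read as particular to the members. The ASC-only regions added 19.3 kb. Widening of shared regions and gain of ASC-only regions thus contributed similar lengths, 22.6 and 19.3 kb. At Jun the shared regions held 7.67 kb in ASC and 0.906 kb in FISC, and the ASC-only regions 3.37 kb. At Fos the figures were 12.2 and 8.02 kb for shared and 5.29 kb for ASC-only regions.

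At Maff the 8 shared flank regions held 10.97 kb in ASC and 13.6 kb in FISC, and 7 FISC-only regions held 4.76 kb. These classes depend on how long the lists are. With lists cut to equal covered length the members had 3 ASC-only (3.23%) and 20 FISC-only regions (21.5%), beside 3.39 and 28.0% of all regions. The cut left 18090 and 14488 ASC peaks and 42792 and 43092 FISC peaks, so these classes compare lists of very unequal strictness.

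**Figure D4:**
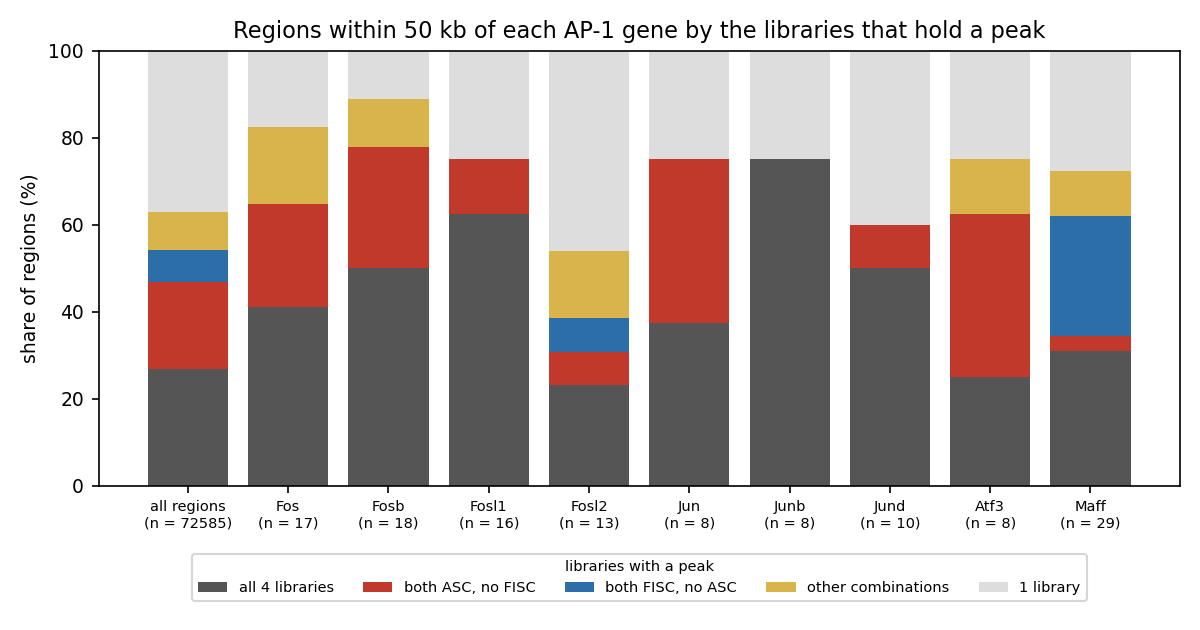
Share of regions within 50 kb of each member, and of all regions, by the libraries in which they have a peak. Junb has no ASC-only region, Maff holds 8 of the 9 FISC-only regions, and the members together hold a larger share found in all 4 libraries (42.5%) than all regions do (26.9%). All regions are those of the whole genome, and the share near other genes was not computed.

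Peak strength was read only within a library, as the rank of the authors' fold enrichment in its own list. The strongest peak at Fosb lay at percentile 99.3 or above in all 4 libraries, and the strongest at Fosl2 at percentile 99.6 or above, with a widest peak of 7.29 and 9.55 kb in ASC and 7.78 and 7.47 kb in FISC. Fos stood at percentiles 97.2 and 97.6 in ASC and 97.1 and 95.4 in FISC. Junb stood at 96.2 and 97.0 in ASC and 89.7 and 87.9 in FISC. The strongest peaks of Fos, Fosb and Fosl2 lay close to their start sites in all 4 libraries. That of Junb lay 2.07 kb upstream of the start in both ASC libraries and 1.42 and 2.59 kb downstream in FISC, so its ranks do not describe the start. Ranks in lists of different length are no measure of change.

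Beyond the members, 27 dimer partners and other bZIP genes, 22 upstream kinases and factors, and 24 known AP-1 target genes were examined by their end breadth. Of 20 targets tested 10 were higher and 1 lower in ASC, beside 26.5% and 3.61% of all genes, with a median of 0.645 kb beside 0.304 kb over all genes. Timp1, an inhibitor of matrix proteases, had 3.02 and 3.01 kb in ASC and 0.206 and 0 kb in FISC (adjusted p 0.00193). Ccl2, a chemokine for monocytes, had 2.54 and 2.58 kb in ASC and 0.185 and 0.227 kb in FISC (0.00193). These were nearly bare in FISC. Lif, a cytokine, was lower with 0.316 and 0.39 kb in ASC and 0.78 and 0.665 kb in FISC (0.0461). The matrix metalloproteinase genes Mmp3, Mmp9, Mmp10 and Mmp13 had no peak at their ends in any library. Without FISC replicate 1 or 2 the targets called higher numbered 4 and 3, where 6.58 and 5.35% of all genes were called higher, and after division by covered length 3 were higher and 7 lower, beside 9.19% and 36.6% of all genes.

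Of 23 bZIP partners tested 6 were higher and 2 lower, with a median of 0.225 kb, so the share higher is near that of all genes (26.5%). Atf6, a sensor of stress in the endoplasmic reticulum, had 3.78 and 4.32 kb in ASC and 2.35 and 2.04 kb in FISC (adjusted p 0.00854). Atf4, the effector of the integrated stress response, gained 1.17 kb (0.0183) and Nfe2l1, a regulator of proteasome genes, 0.893 kb (0.0126). Cebpd, a bZIP factor of the acute phase, had 2.15 and 2.06 kb in ASC and 4.37 and 4.35 kb in FISC (0.00238). Without FISC replicate 1 or 2 the partners called higher numbered 1 and 0. Divided by covered length, 0 were higher and 14 lower, beside the same 9.19% and 36.6%.

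Of 21 upstream genes tested 3 were higher and 0 lower, beside the same 26.5% and 3.61%, with a median of 0.27 kb. Mrtfa, a cofactor of serum response factor, had 3.12 and 3.13 kb in ASC and 1.66 and 1.10 kb in FISC (adjusted p 0.00786). Its relative Mrtfb gained 0.725 kb (0.0479). Divided by covered length, 0 were higher and 12 lower, beside those shares again. In the flanks the lists were called higher in 14 of 20 targets, 12 of 27 partners and 14 of 21 upstream genes, beside 46.0% of all genes.

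By a rule of likeness over the 8 values of end and flank breadth, the genes closest to Fos outside its neighbourhood were Mms19 (Euclidean distance 2.37 kb), Azin1 (2.42 kb) and Ddit4 (2.60 kb). Mean flank breadth at Mms19 was 22.5 kb in ASC and 9.19 kb in FISC, close to the values of Fos.

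Of the 10 satellite cell markers, all tested, 3 were higher in ASC (Itga7, Fgfr4 and Vcam1) and 2 lower (Calcr and Chrdl2), beside 26.5% and 3.61% of all genes. The share higher is near that of all genes. Marker calls after division by covered length were not counted. The summed end breadth of the list was 29.6 and 31.3 kb in ASC and 29.9 and 32.3 kb in FISC. Itga7, an integrin used to sort satellite cells, had 4.0 kb in each ASC library and 1.59 and 1.75 kb in FISC (adjusted p 0.00227). Pax7, the factor that defines satellite cells, had 2.83 and 2.84 kb in ASC and 3.45 and 3.08 kb in FISC (adjusted p 0.137). Calcr, a receptor of quiescent satellite cells, had no peak in ASC and 1.31 and 0.947 kb in FISC (adjusted p 0.00824). Among other cell types, 5 of 8 myeloid markers were at 0 in all libraries (Ptprc, Itgam, Adgre1, Lyz2 and Fcer1g), and the list summed to 3.62 and 5.41 kb in ASC and 2.60 and 2.36 kb in FISC. Lymphoid markers at 0 were 3 of 5, endothelial 4 of 6, fibro-adipogenic 3 of 6 (Pdgfra, Lum and Dcn), smooth muscle and pericyte 1 of 6, and Schwann 2 of 4. Some markers of other cell types were called by limma. Fibro-adipogenic Ly6a was higher, with 1.44 and 2.42 kb in ASC and no peak at its ends in FISC (adjusted p 0.0156), and Dpt was lower (0.0123). Of the smooth muscle and pericyte markers Notch3 was higher (0.00998), and Pdgfrb (0.0134) and Tagln (0.00821) were lower. Fibro-adipogenic markers summed to 5.14 and 6.49 kb in ASC and 4.57 and 4.77 kb in FISC, and endothelial markers to 0.614 and 0.971 kb in ASC and 1.33 and 1.64 kb in FISC. The part of other cells in the differences at the members was not tested.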

How the data were processed

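The 4 H3K27ac libraries (2 ASC, 2 FISC) each gave 1 narrow peak list. The submitters' processing notes name bcl2fastq 2.19, BWA, Picard and MACS2, with mm10. For the last 3 tools, versions and settings, and the use of the inputs, were not given in the sources used here. Each deposited fold enrichment is a ratio computed by the authors' peak caller, the authors' p and q values were deposited as −log10, and the deposited score is an integer from the same caller. Fold was read only within a list, because it depends on each library's depth and background. Breadth follows both the mark and the depth behind each list.

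Peak positions were joined to RefSeq genes on GRCm38.p6. The end windows reached 2 kb to each side of both gene ends and were merged, and the flanks ran from 2 to 50 kb outside the gene. For each place, protein-coding genes with peaks in 2 or more libraries were modelled in linear kb, unscaled, with limma 3.58.1 (eBayes with trend, R 4.3.3, Python 3.11.15, pandas 2.3.3, numpy 2.4.6). P-values were adjusted by Benjamini-Hochberg over all tested genes, threshold 0.05, all 2-sided. The code was tested on simulated data.

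All 9 members are named. Of each pathway list the 3 called genes with the largest end differences in each direction are named, and the 3 genes most like the member with the largest flank difference. Some genes that this rule selects are not reported here. Individual regions, and the markers Itga7, Pax7 and Calcr, were chosen after their values were seen. Members and lists were chosen with earlier results of these data known. The labels do not say what the replicate numbers share, and deviations of same-numbered libraries correlated at −0.0231 at ends, 0.0352 in bodies and −0.124 in flanks, so no block entered the fit. Alternatives were stricter peaks, lists of equal number or length, scaling by covered length, log2(kb + 0.1), no filter, joined peaks, other windows and flank limits, start sites alone, a replicate block, leaving out each library, and leaving out bases near other gene ends.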

Additional observations from a re-analysis of the deposited data

How the results depend on the processing

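Members called higher and lower at the ends (2 and 0 as reported) were 1 higher with a fold enrichment of at least 5, with equal covered length and without the filter, 3 higher (Junb added) with −log10 q of at least 5 and with 5 kb windows, 0 at annotated start sites alone, 0 higher and 5 lower after division by covered length, and 1 to 2 higher and 0 to 1 lower (Jund, without ASC replicate 2) when 1 library was left out. In the bodies (2 and 0) the higher count was 1 with −log10 q of at least 5, equal covered length, log2, no filter, the replicate block or division by covered length, which gave 5 lower, and 0 to 2 when 1 library was left out. In the flanks (8 and 1) 4 were higher with equal covered length, 3 after division by covered length, 3 without the filter, 4 with a limit of 20 kb and 5 without bases near other gene ends. Beside these, 18.4, 24.5, 20.3, 37.0 and 47.9% of all genes were higher, in that order. The 1 lower call, Maff, fell to 0 with log2, no filter, joined peaks, the replicate block, and limits of 20 and 100 kb. Leaving out 1 library gave 3 to 8 higher and 0 to 1 lower, with 3 higher and 0 lower without FISC replicate 1 or without FISC replicate 2. With equal covered length 3 regions were ASC-only and 20 FISC-only. Beyond fewer samples where a library was left out, the cause was not tested.

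Over 413 values of single members and settings, 317 kept direction and call, 57 lost the call, 8 gained it and 31 reversed. Division by covered length turned end breadth to −1.36 kb at Fos, −0.561 at Jun, −1.77 at Junb, −0.857 at Atf3 and −0.531 at Maff, body breadth to −0.598 at Fos, −0.454 at Fosb, −2.19 at Fosl2, −0.520 at Jun, −0.756 at Junb, −1.27 at Jund and −0.410 at Atf3, and flank breadth to −1.05 at Fosb, −2.54 at Fosl1, −0.525 at Fosl2 and −0.794 at Jund. Small end differences turned at Jund with a fold of at least 5 (0.111 kb) and at start sites alone (0.0425), at Maff at start sites alone (−0.209) and at Fosb with 5 kb windows (0.604). Body breadth turned at Maff with a fold of at least 5 (0.322) and at Fosl2 with equal covered length (−0.864). Leaving out 1 library gave end differences of −1.03 to 0.0545 at Jund and −0.234 to 0.015 at Fosb, and body differences of −0.512 to 0.436 at Maff, −0.0415 to 0.0475 at Fos, −0.011 to 0.949 at Fosl2 and −0.0855 to 0.311 at Atf3.

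The replicate block, though the labels tie the libraries by no more than a number, left 2 members higher at the ends, 1 in the bodies, and 7 higher and 0 lower in the flanks, where Fosl1 (adjusted p 0.055) and Maff (0.0531) were lost. With the numbers crossed, chosen after seeing the data, the flanks gave 8 higher and 1 lower. Read depth is unknown, so a missing peak marks only that none was listed.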
